A study of Canis lupus familiaris with 109 samples.

Results

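The window studied here runs from position 300000 to position 2800000 of dog chromosome 12 on the CanFam3.1 build, where the major histocompatibility complex of the dog is expected. Its members were all positions of the main methylation table whose column name falls in that interval, with no use of measured values. There were 3432 such positions of 11380 on chromosome 12 and of 304191 in the whole table. The window thus held 30.2% of the positions of chromosome 12 in 3.46% of the length between its first and last listed position. In a second table of repeat captures the same interval held 15075 of 58778 positions on the chromosome, of 1812277 in all.

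The data are methylation fractions from captured, bisulfite-treated DNA of the whole blood of domestic dogs, and the study relates methylation to age. The labels describe 109 samples of 103 dogs, with no treatment, strain or breed named. Of these, 94 samples named the main table (ages 0.134 to 14.5 years, median 6.37; 30 female, 31 male, 33 with no sex recorded), 8 were marked as low in coverage (0.455 to 9.33 years), 6 as a second capture (0.384 to 15.5 years) and 1 as the first capture of a repeat only (15.5 years). The 95 libraries of the main table and the 7 of the repeat table carry codes that match none of these labels. Ages and sexes could therefore not be assigned to libraries, and values are given over all libraries of a table. Whole blood is a mixture of white cell types, and the share of each type was not measured.

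The major histocompatibility complex is the cluster of genes through which cells show peptides to T cells. Class I molecules, encoded in the dog by genes such as DLA-88, present peptides from inside the cell to cytotoxic T cells, and class II molecules (DLA-DRA, DLA-DRB1, DLA-DQA1, DLA-DQB1) are carried mainly by antigen-presenting cells and present peptides to helper T cells. Between them lies the class III region with complement and cytokine genes. The class I and class II genes are among the most variable of vertebrate genomes, and sets of their alleles are inherited together as haplotypes. Bisulfite turns unmethylated cytosine into uracil, which is read as thymine, and leaves methylated cytosine in place, so that the fraction of reads with a cytosine is the methylation level. A cytosine that is absent from a dog's own sequence because it is a thymine there is read in the same way as an unmethylated one. In vertebrates most CpG dinucleotides are methylated, other than those in dense clusters, CpG islands, that often hold promoters.

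The label of the window could not be checked against genes on the build of the files. In the RefSeq gene table on the assembly UU_Cfam_GSD_1.0, used only for the order of genes, 104 genes of a list of 133 names of the human and dog complexes lay on chromosome 12. In that order came first 18 genes of the class I side, from RPP21 to TCF19. They were followed by the class I genes DLA88 and DLA-64, which were numbers 19 and 20. The 13 class III cytokine and immune genes, with TNF, LTA and LTB, which encode cytokines, and with C2 and CFB, which encode complement proteins, were numbers 24 to 66. All 8 class II genes were numbers 72 to 84, and the 5 antigen processing genes (TAP1, TAP2, TAPBP, PSMB8 and PSMB9) were numbers 77 to 96. No coordinate of that assembly was carried over, and the regions of the window are therefore named by position alone.

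Most positions of the window were either unmethylated or methylated. The level of a position is its median fraction over the 95 libraries. Of the 3432 positions, 1932 (56.3%) had a level under 0.1 and are called unmethylated, 928 (27%) had a level over 0.8 and are called methylated, and 572 (16.7%) lay between. In the rest of chromosome 12 (7948 positions) the shares were 58.1%, 25.8% and 16.1%. A level of exactly 0 was found at 51.3% of the window's positions and at 47.5% of those in the rest. These shares are descriptions, since neighbouring positions are not independent. The tables used here give no depth per position, so the precision of a single fraction is unknown.

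The density of positions set the window apart more than their levels. The rest of the chromosome was divided into 28 stretches of the window's length, of which the fullest held 1296 positions and the median stretch 230. Over the 22 stretches with at least 100 positions, the unmethylated share ran from 17.1% to 81%, which takes in the window's 56.3%.

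The classes were laid out in blocks. From 300000 to 600000 there were 652 positions, of which 518 (79.4%) were unmethylated. The next stretch, to 800000, held 124 positions and the opposite make-up, with 74 (59.7%) methylated and 24 (19.4%) unmethylated. The part from 800000 to 1600000 was the fullest, with 1773 positions, of which 902 (50.9%) were unmethylated and 523 (29.5%) methylated. From 1600000 to 2400000 only 98 positions were listed, 50 of them (51%) methylated, and the repeat table listed 315 there. The longest stretch without a position was 206936 bp in the main table, between 1627640 and 1834576, and 248290 bp in the repeat table, between 1627640 and 1875930. The last part, from 2400000, held 785 positions, 469 (59.7%) of them unmethylated. The plot of classes along the window shows these blocks and the sparse stretch between them.

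**Figure D1:**
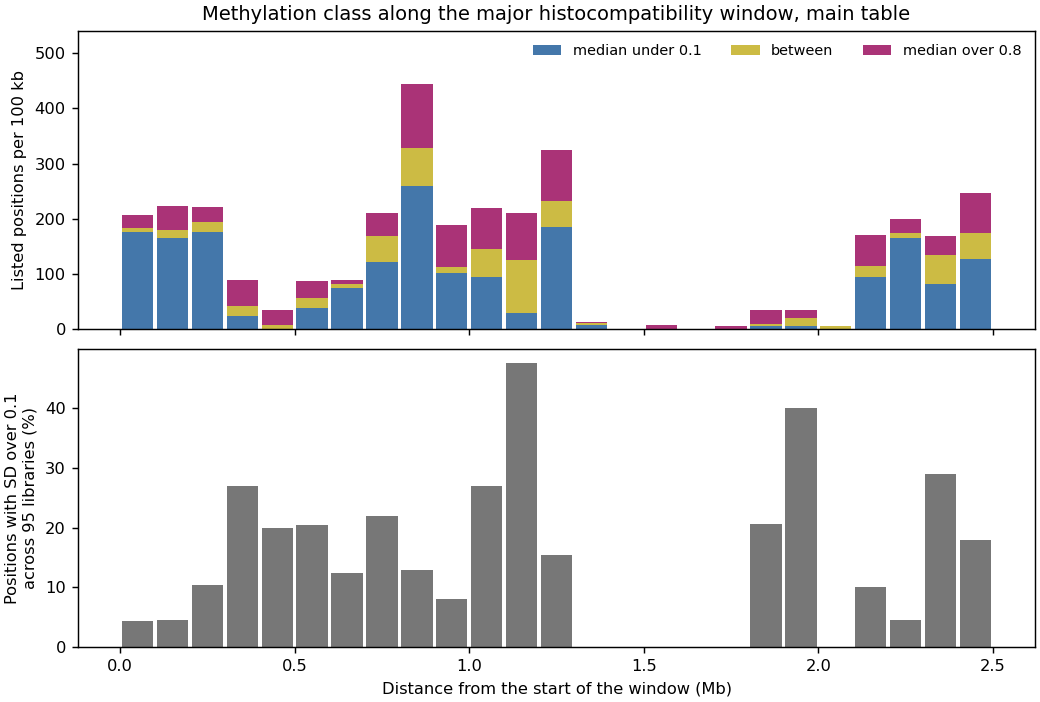
Number of listed positions per 100 kb in each methylation class (top) and share of positions with a standard deviation (SD) over 0.1 across 95 libraries (bottom, %; only bars with at least 30 positions are drawn) against distance from the start of the window in Mb. The dense unmethylated blocks lie at both ends and in the middle, and the highest bar for spread, at 47.6%, is that of the 100 kb from position 1400000.

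Each library repeated this layout. The mean fraction over the first block ran from 0.162 to 0.179 over the 95 libraries (median 0.169), that of the methylated stretch after it from 0.617 to 0.674 (median 0.643), and that of the central part from 0.35 to 0.384 (median 0.362). The sparse stretch had means of 0.568 to 0.667 (median 0.604), and the last part 0.277 to 0.316 (median 0.296). The ranges of these 5 parts did not overlap, except for the sparse stretch and the methylated stretch. The borders of the parts were chosen with results of these data known. Every library was averaged over the same positions, so the ranges are a description and no test of the layout.

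The 100 kb from 1400000 differed from those next to it. Only 29 of its 210 positions (13.8%) were unmethylated, whereas 85 (40.5%) were methylated and 96 lay between. In the 100 kb on either side the unmethylated share was 42.9% (from 1300000) and 57.1% (from 1500000). The repeat table gave 36.1% for the same 100 kb, of 1272 positions, against 57.5% and 65.4% for its neighbours.

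A position's class followed its local density, counted as all listed positions at most 100 bp away, itself included. Listing was not equal: 20.7% of the window's repeat-table positions were also in the main table, against 16.2% in the rest. Like counts therefore need not mean like CpG density, and this was not tested. With 1 to 3 positions, 17.2% of 795 window positions were unmethylated, and with 4 to 7 positions 40.5% of 796. In the rest of the chromosome these shares were 16.3% and 39.2%. With 8 to 15 positions 72.9% of 1024 window positions were unmethylated against 81.1% of 2403 in the rest. With 16 to 31 positions the shares were 89.3% of 712 and 93.7% of 1397, and with 32 or more 86.7% of 105 and 100% of 266. Weighted over the classes, the unmethylated share of the window minus that of the rest at like listed density was -3.25 percentage points. It was -6.67 with neighbours counted within 250 bp.

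Part of that difference lay in a single place. A pair of neighbouring runs from 1499305 to 1500154, described below and chosen after its values were seen, holds 90 positions. Its first run was picked for having the most positions between the classes. Leaving the pair out thus raises the window's unmethylated share by construction, and no runs were left out of the rest. Without it, 97.2% of window positions at a density of 16 to 31 and 100% of those at 32 or more were unmethylated, and the weighted difference was -1.12 percentage points. With neighbours counted within 250 bp the pair had a smaller part in it, and the difference without the pair was -5.08. In the class of 8 to 15 positions the share was 73.4% without the pair, still under the 81.1% of the rest. In single libraries the share of fractions under 0.1 in that class ran from 70.1% to 74.5% in the window and from 73.7% to 82.8% in the rest.

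**Figure D2:**
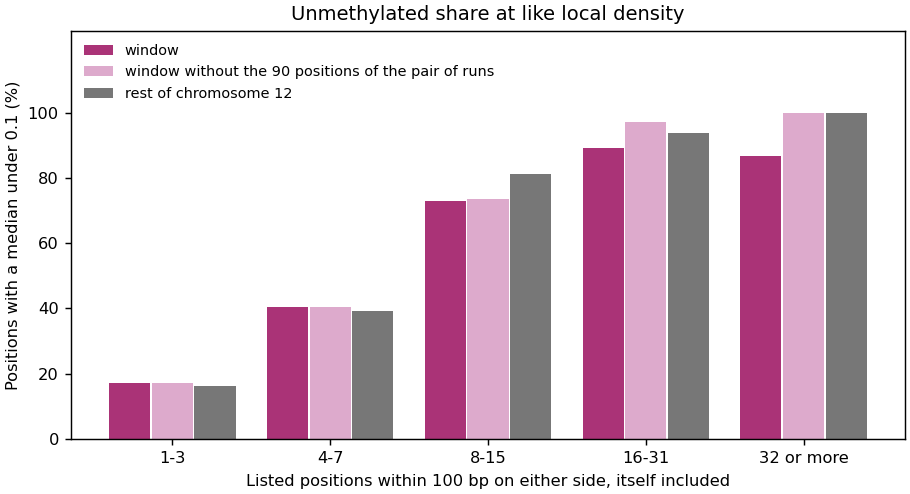
Share of positions with a median under 0.1 (%), by the count of listed positions at most 100 bp away, for the window, the window without the 90 positions of the pair of runs, and the rest of chromosome 12. The window is lower than the rest from 8 positions up, and without the pair from 8 to 15 positions only. No runs were left out of the rest.

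Regions were built as runs: 10 or more listed positions in a row, none more than 100 bp from the next, and the level of a run in a library is the mean over its positions. The window held 83 runs with 1931 positions, with a median length of 260 bp. Of these, 56 (67.5%) had a median level under 0.1, 11 (13.3%) over 0.8 and 16 (19.3%) between. In the rest of the chromosome 161 of 197 runs (81.7%) were unmethylated, 13 (6.6%) methylated and 23 (11.7%) between, and the median length was 192 bp. Runs that held both unmethylated and methylated positions numbered 6 in the window (7.23%) and 3 in the rest (1.52%).

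The longest run of the window was unmethylated from end to end. It lay at 434282-435446 (1165 bp) and had 92 positions, each with a level of 0. Its mean ranged from 0 to 0.00565 over the 95 libraries, with a median of 0.00217. The third longest, at 383761-384541 with 37 positions, was alike, with a median of 0.0073 and a highest library of 0.0405. These long unmethylated runs both lay in the first block.

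The second longest run, at 2663559-2664548, ended in a raised stretch. Its first 45 positions, to 2664428, had a mean of 0.00622 in the median library (0.00156 to 0.0307). The last 9 positions, from 2664456 to 2664548, had levels of 0.21 to 0.64 and a mean of 0.3 in the median library (0.187 to 0.486). The stretches of this run, and those of the runs below, were cut after the values were seen. With this cut the ranges of the stretches did not overlap, so that every library had the step.

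A sharper step was found in the unmethylated run with the highest level, at 1182510-1183041. Its first 31 positions, over 1182510 to 1182744, each had a level of 0. The next 3, from 1182806 to 1182926, had levels of 0.06 to 0.32, and the last 3, from 1182971 to 1183041, had 0.84 to 0.92. The mean of the first stretch was at most 0.00806 in any library, and that of the last at least 0.823.

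The other unmethylated runs with high levels had small raised parts of this kind. The run at 1359499-1359765 had 8 of 11 positions under 0.1 and 3 between, up to 0.35, and ranged from 0.0182 to 0.256 over libraries (median 0.0855). The run at 1138895-1139063 had 9 of 13 positions under 0.1 and ranged from 0.0208 to 0.173 (median 0.0808).

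Intermediate levels came about in different ways. In the 3 intermediate runs with the smallest spread the mean joined positions of different classes. At 2729908-2730650 (21 positions) the first 15 positions had a median level of 0 and the last 3, from 2730632, had levels of 0.92 to 0.95. Its mean stayed between 0.19 and 0.305 in all libraries (median 0.25, SD 0.0211 over 95 libraries). At 1355653-1355893, 7 of 10 positions were unmethylated and 1 was methylated, with means of 0.189 to 0.323. At 1163829-1164171, 6 of 12 positions were methylated and 6 between, with means of 0.658 to 0.853. In these runs the median correlation between positions across libraries was 0.0113, 0.0264 and 0.0187, so their positions did not vary together.

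The run at 1149140-1149817, with 49 positions, was chosen after its values were seen. It had the most positions among runs with all 3 classes, other than the run at 1499305 described below. From its start, 16 positions had a median level of 0.05. The next 10, from 1149275 to 1149443, had levels of 0.31 to 0.9, the 8 after them 0.01 to 0.24, and the last 15, from 1149620, each 0. The partly methylated stretch of 10 positions thus sat inside a run that was unmethylated at both ends, and it had a mean of 0.256 to 0.617 over libraries (median 0.452).

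In the 3 intermediate runs with the largest spread the positions moved together. The spread of a run's mean depends on how its positions vary together, so this contrast follows in part from the choice by spread. The run at 1196826-1196920 had 11 positions, all between the classes (levels of 0.4 to 0.73). Its mean ranged from 0.332 to 0.911 over the 95 libraries, with a median of 0.655, and 16 libraries were over 0.8. The median correlation between its positions was 0.626. The run at 2605410-2605517 had 12 positions with levels of 0.42 to 0.6, a mean of 0.0675 to 0.862 (median 0.521) and a median correlation between positions of 0.771. Of its libraries, 2 were under 0.2 and 3 over 0.8, and the values in between formed no gap in the plot of run levels.

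The third was the shorter run of the pair named above. The run at 1500053-1500154 (18 positions) ranged from 0.0556 to 0.783 over libraries, with a median of 0.251. The highest library, coded L5_A6, stood at 0.783 and the next at 0.574, and 33 libraries were under 0.2. The run before it, at 1499305-1499875, ends 177 bp earlier and has 72 positions, of which 56 were between the classes, the most of any run of the window. Its mean ranged from 0.205 to 0.653 (median 0.329), with L5_A6 again the highest and 10 libraries over 0.5. The 2 runs rose and fell together over libraries (Pearson's r = 0.719, Spearman's rho = 0.676, n = 95 libraries).

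Within the longer run of the pair the level fell in steps. The first 14 positions, over 1499305 to 1499489, had levels of 0.5 to 0.94 and a mean of 0.609 to 0.929 over libraries (median 0.766). The next 27, to 1499676, had a mean of 0.121 to 0.771 (median 0.323), and the last 31, from 1499681, a mean of 0.0161 to 0.509 (median 0.147). The lower the median, the wider the range was relative to it. All 14 window positions that were between the classes at a density of 32 or more lay in this pair, and the rest of chromosome 12 had no such position.

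**Figure D3:**
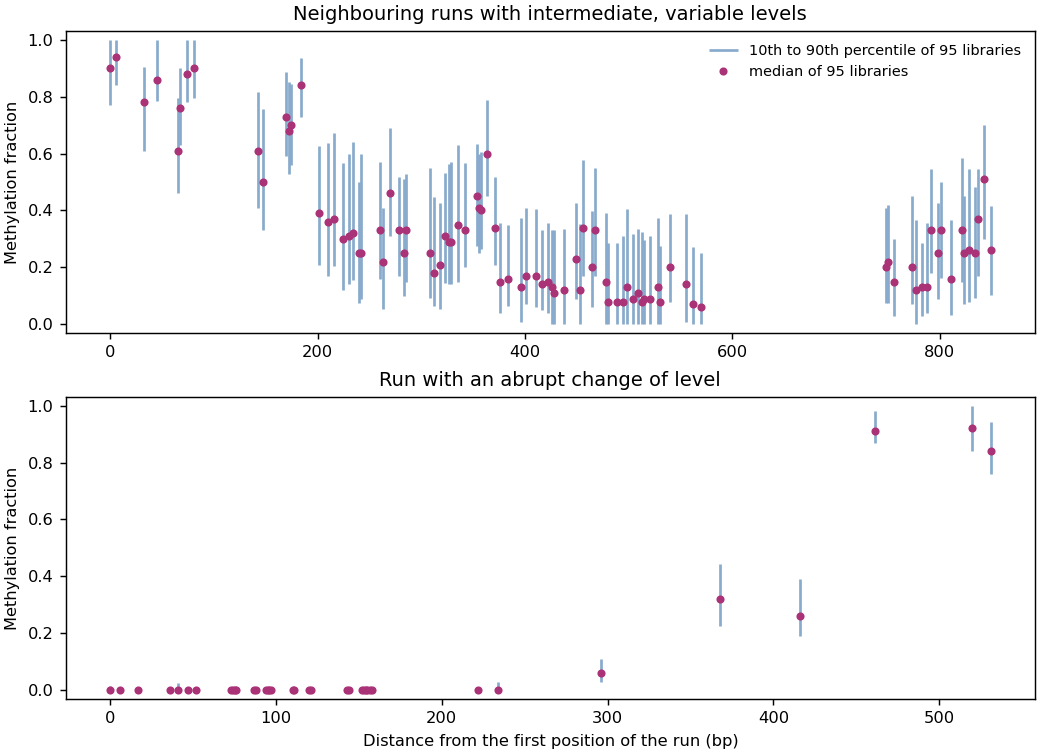
Methylation fraction at each position against distance in bp from the first position of the run, for the pair of neighbouring runs (top) and for the unmethylated run with the highest level (bottom). Points are medians and lines the 10th to 90th percentile of 95 libraries; the upper profile falls from about 0.9 and is wide, the lower stays at 0 over 31 positions and then rises to 0.84 to 0.92.

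**Figure D4:**
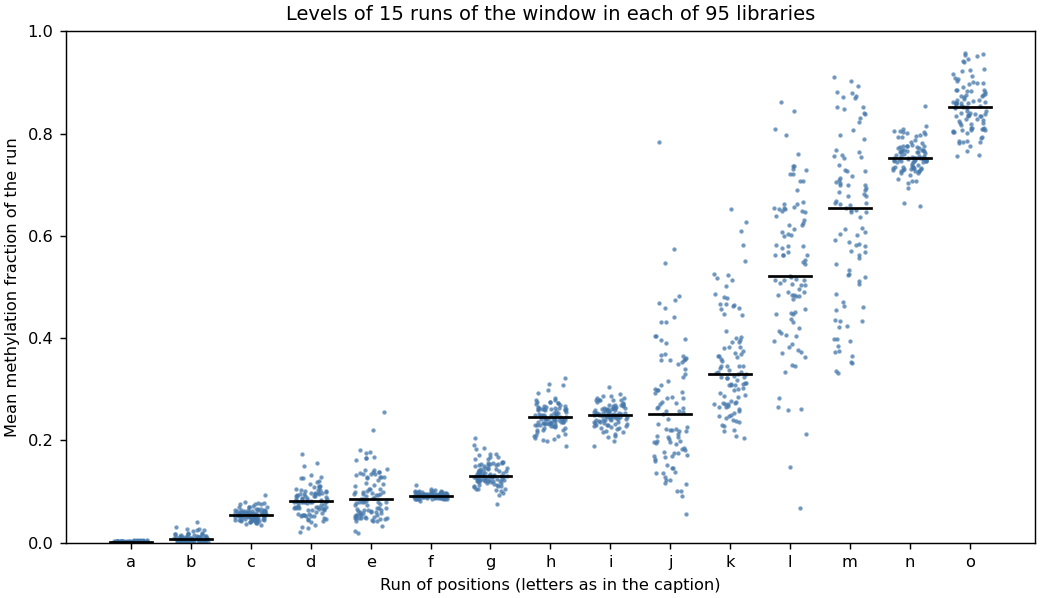
Mean methylation fraction of 15 runs in each of 95 libraries (points) with the median (bars), in order of the median. The runs start at 434282 (a), 383761 (b), 2663559 (c), 1138895 (d), 1359499 (e), 1182510 (f), 1149140 (g), 1355653 (h), 2729908 (i), 1500053 (j), 1499305 (k), 2605410 (l), 1196826 (m), 1163829 (n) and 713846 (o); h, i and j have like medians, and j is far wider.

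Spread between libraries was measured as the SD of a position over the 95 libraries. It was over 0.1 at 578 window positions (16.8%), with 15% of all positions of chromosome 12 over that value and 14.2% of those outside the window. Without the pair of runs the window's share was 14.8%. Over the 22 stretches of the rest with at least 100 positions this share ran from 3.68% to 23.5%. The window's share was thus near the background of the chromosome.

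The window and the rest differed most among the positions between the classes. Of these, 458 of 572 in the window (80.1%) had an SD over 0.1, against 818 of 1281 (63.9%) in the rest, and without the pair of runs the window's share was 77.1%. Among unmethylated positions the shares were 3.16% in the window and 4.33% in the rest, and among methylated positions 6.36% and 5.21%. By runs, 10 of 83 (12%) in the window and 7 of 197 (3.55%) in the rest had an SD over 0.05. Spread depends on the level, and the levels were unlike. Of the positions between the classes, 471 in the window and 914 in the rest had levels of 0.2 to 0.8. Of the runs, 12 in the window and 5 in the rest had medians in that interval. The shares of positions and runs were not matched for level. Among the 100 kb parts with at least 30 positions, that from 1400000 had the highest share of positions with an SD over 0.1, at 100 of 210 (47.6%). Of these 100, 66 lay in the run at 1499305. Without the pair of runs the share was 34 of 138 (24.6%), under the 26.9% of the part from 1300000 and the 29% of that from 2600000.

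Positions a short distance apart varied together more than distant ones. There were 471 window positions with intermediate levels (0.2 to 0.8). Pairs of them 2 to 10 bp apart had a median r over the 95 libraries of 0.667, whereas the 28 pairs at 1 bp, which can be the strands of a CpG, had 0.271. The median r was 0.563 for pairs over 50 and up to 100 bp apart, 0.336 for pairs over 200 and up to 500 bp apart, and 0.0894 for pairs over 1000 and up to 5000 bp apart. In the rest of the chromosome (914 positions) these values were 0.503, 0.185 (at 1 bp), 0.349, 0.38 and 0.0952. The window's higher values at short distance include those of the pair of runs. Positions of a library share its reads and its depth, so these values are a description.

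Both strands of a CpG were listed at 261 places of the window. None differed by more than 0.2 in level between its strands, and the median difference at the 37 with a level from 0.1 to 0.8 was 0.02.

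At 7 positions of the window the libraries fell into 3 groups, near 0, near 0.5 and near 1. The rule asked for at least 8 libraries under 0.12, at least 8 from 0.3 to 0.7 and at least 8 over 0.88, with at most 12 elsewhere. Such positions made up 0.204% of the window and 0.0967% of chromosome 12, with 4 in the rest (0.0503%). A cytosine that is present on no copy, on a single copy or on both copies of a dog's chromosome gives 3 levels of this kind, and methylation that differs between haplotypes can do so too. Genotypes were not analysed here, so the sources cannot be told apart.

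The 7 positions were 826794, 1325445, 1410520, 1414231, 1486864, 2093125 and 2226853, spread over 1400059 bp. At 826794, 8 libraries were low, 40 in the middle and 36 high. At 1325445 the counts were 23, 46 and 14, and at 1410520 they were 13, 42 and 33. Position 1414231 had 21 low, 51 middle and 15 high libraries, and 1486864 had 25, 44 and 15. Position 2093125 had 16, 43 and 28, and 2226853 had 19, 48 and 21. At all of them the middle group was the largest. Of the 7, 5 had no other listed position within 100 bp, and 3 lay in the 100 kb from 1400000.

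Libraries tended to fall on the same side, or on opposite sides, at pairs of these positions. Whether this exceeds what unlinked positions would give was not tested. For each pair of positions, the libraries that were low or high at both were counted. Low and high libraries were unequal in number, as at 826794 (8 low and 36 high), so unlinked positions need not split evenly. No expected share was computed. Between 826794 and 1410520, which lie 583726 bp apart, 36 of 37 such libraries were on the same side (both low or both high). Between 1325445 and 1414231 it was 22 of 23. Over the 10 pairs among the 5 positions under 2000000, 217 of 256 counts (84.8%) were on the same side, and the same side was the commoner in all 10 pairs.

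The 2 positions over 2000000 had 28 of 34 libraries on the same side, and were mostly on the opposite side to the other 5. Over the 10 pairs between the sets, 219 of 261 counts were on opposite sides, which leaves 42 (16.1%) on the same side, and the opposite side was the commoner in all 10 pairs. Between 1410520 and 2226853, which lie 816333 bp apart, 28 of 33 were opposite.

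Position 2865843, which lies just past the end of the window, met the same rule and went with the 2 positions over 2000000. With them, 46 of 57 counts (80.7%) were on the same side. With the 5 positions under 2000000 it had 43 of 134 (32.1%) on the same side, and the same side was the commoner in 1 of 5 pairs. At 2865843 itself 9 libraries were low and 45 high, so here too an even split need not be the expected share.

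The 3 other positions of the chromosome that met the rule lie far from the window, and their pooled counts with the window's positions were less one-sided. With the 5 positions under 2000000, 61 of 100 counts (61%) were on the same side for 14195722, 49 of 119 (41.2%) for 23106550 and 57 of 128 (44.5%) for 65197113. With the 2 positions over 2000000 these counts were 19 of 44 (43.2%), 24 of 47 (51.1%) and 29 of 54 (53.7%). Single pairs outside the window could be one-sided too. Between positions that both lay outside it, the commoner side held 62.1% (2865843 and 23106550) to 80% (14195722 and 23106550) of counts. Between positions that both lay in the window it held 65.6% (826794 and 2093125) to 97.3% (826794 and 1410520), so the ranges overlapped. The map of fractions orders libraries by their sum over the 5 positions under 2000000, so these change together there through the ordering. The 2 positions over 2000000, not used in the order, ran opposite to them. No test was made, since the counts of a library enter several pairs.

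**Figure D5:**
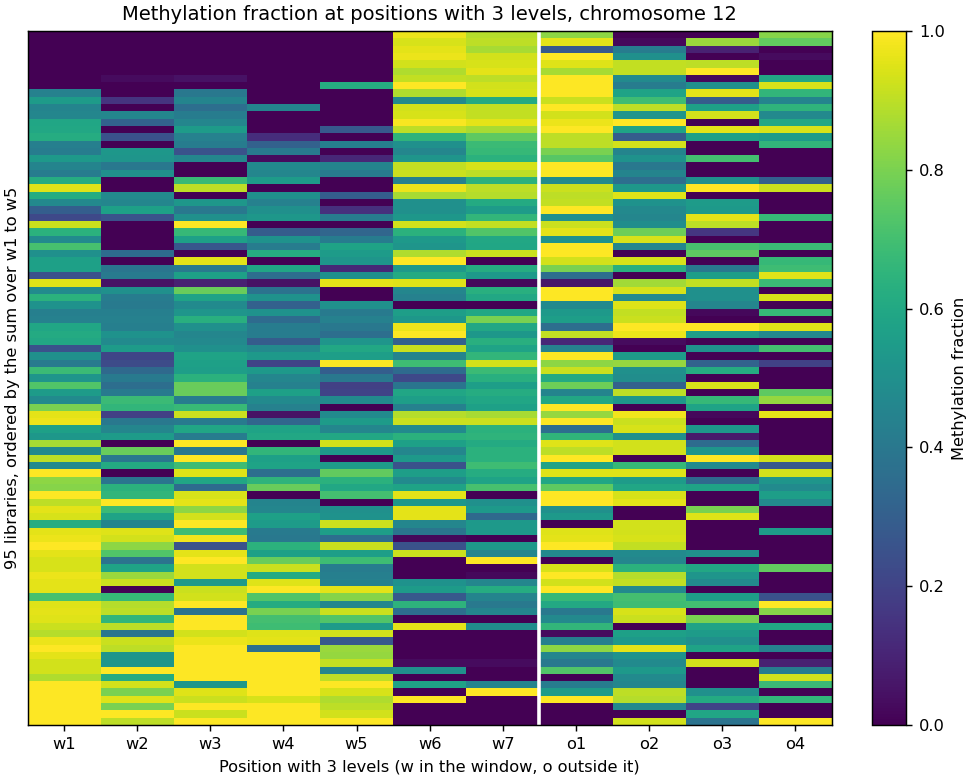
Methylation fraction (colour, 0 to 1) of 95 libraries (rows, ordered by their sum over w1 to w5) at the positions with 3 levels: w1 to w7 are 826794 to 2226853 in the window, o1 to o4 are 2865843, 14195722, 23106550 and 65197113. Columns w6 and w7, which the order did not use, run opposite to w1 to w5. Column o1, just past the end of the window, goes with w6 and w7 more often than not. For o2, o3 and o4 the shares of counts on the same side as w6 and w7 were 43.2%, 51.1% and 53.7%.

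Some of the variable runs were related to each other across libraries. The 12 runs of the window with the largest SD gave 66 pairs, and with the relation of library means below 67 relations were tested by permutation (100000 permutations, two-sided, Benjamini-Hochberg adjusted over the 67). Of the 66 pairs, 15 (22.7%) had adjusted p-values under 0.05 for both Pearson's r and Spearman's rho, 13 of them positive and 2 negative, and 21 had an unadjusted p under 0.05 for Pearson's r. The median r over all pairs was 0.0935, and 4 pairs had an absolute r over 0.4. No pairs of runs outside the window were computed. The 22.7% therefore has no background share beside it and cannot be read as particular to the window.

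The highest was that within the neighbouring pair of runs (r = 0.719 and rho = 0.676 over 95 libraries, permutation p = 1e-05, the smallest the permutations can give, adjusted p = 0.000134 and 0.000167). Without the 2 libraries farthest from the median it was 0.701. Libraries carry a code prefix, of which there are 10 with 8 to 11 libraries each. Within prefixes r ran from -0.118 to 0.945 and was positive in 9 of 10.

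The 2 negative relations joined this pair to a methylated run of the 100 kb from 700000. The run at 713846-714168 (14 positions) ranged from 0.757 to 0.958 over libraries (median 0.851), and had the largest SD of the methylated runs (0.0478). Its r was -0.521 to the run at 1500053 (rho = -0.476, permutation p = 1e-05, adjusted p = 0.000134) and -0.468 to that at 1499305 (rho = -0.473, permutation p = 1e-05, adjusted p = 0.000134). The values without the 2 farthest libraries were -0.499 and -0.468, and 8 of 10 prefixes had the same sign in each case.

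A few positions carried this relation. At 4 of the 14 positions of the run (713961, 714087, 714144 and 714150) r to the run at 1499305 was between -0.559 and -0.408, and at the other 10 it was between -0.205 and 0.116. The 4 positions had levels of 0.5, 0.71, 0.86 and 0.82. Of the other 10, position 713949 had a level of 0.86 and an SD of 0.128, and its r was 0.092.

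The relation between the runs at 1357859 and 2752451 was next (r = 0.442, rho = 0.457, permutation p = 1e-05, adjusted p = 0.000134 and 0.000167). The second element of the codes takes 25 values that recur across prefixes. With the means of these values removed, r fell to 0.304. The r of 0.324 between the runs at 1357859 and 1359499 became 0.0807 in this way, and the r of 0.292 between those at 1071232 and 1357859 became 0.0114, whereas within the neighbouring pair it was 0.752. What the elements of the codes stand for is not given in the sources used here.

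The mean of the whole window was higher than that of the rest of chromosome 12 in 95 of 95 libraries. Every library was averaged over the same positions, so the 95 are not separate tests of a difference. The window mean ranged from 0.317 to 0.342 (median 0.327) against 0.303 to 0.32 (median 0.314) in the rest. The median difference was 0.0146, and 0.0147 without the pair of runs. The 2 means were related across libraries (r = 0.49, rho = 0.447, permutation p = 1e-05 and 2e-05, adjusted p = 0.000134 and 0.000268). Without the 2 farthest libraries r was 0.452, and with the values as deposited, before values of 1.0 at unmethylated positions were replaced, it was 0.914. Within prefixes r ran from -0.235 to 0.949 and was positive in 8 of 10.

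Repeat libraries were compared by the number in their codes, which 6 libraries of the repeat table share with a library of the other capture. No label says that a shared number is the same dog. Over the 3087 to 3118 window positions with a value in both, r across positions was 0.9736 to 0.9895 (median 0.9851), and the median absolute difference was at most 0.01. In the rest of the chromosome r was 0.9769 to 0.9868. Much of that agreement comes from positions near 0 or 1. Over window positions whose mean was between 0.1 and 0.9, r was 0.788 to 0.9242 (median 0.8991), against 0.8733 to 0.9242 in the rest. The lowest in the window were number 7 (0.788, and 0.873 in the rest) and number 10 (0.794, and 0.92 in the rest).

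How far the variable runs kept their levels between captures differed from run to run. Of 72 combinations of 12 runs and 6 pairs, 47 differed by under 0.05 and 8 by over 0.1. For the run at 1196826 the largest difference was 0.0873, with an SD of 0.157 across the 95 libraries. For the run at 2656473, by contrast, the median difference was 0.0857 and the largest 0.165, with an SD of 0.0994, and for that at 512176 the median difference was 0.0525 with an SD of 0.061. In both of these runs only 3 of 6 pairs differed by less than the SD between libraries. For the run at 1499305, 5 of the 6 pairs differed by at most 0.0366, and the pair of number 7 had 0.404 in the first capture and 0.66 in the second. That pair accounted for 4 of the 8 differences over 0.1, and its second library had the highest share of empty window cells in the repeat table, 5.94% (lowest 0.889%). The part of missing values in the difference was not tested. At the positions with 3 levels, 6 were in both captures. Of their 36 comparisons, 32 fell in the same group, 4 in a gap between groups and 0 in different groups.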

How the data were processed

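Whole-blood DNA of dogs was captured with the Roche SeqCap Epi protocol and bisulfite-treated, per the labels' protocols. Bismark 0.14.3, Bowtie2 2.1.0, Trim Galore and the build CanFam3.1 appear in the submitters' processing notes, with no role given. The tables hold methylation fractions, deposited by position and library, with no coverage beside them, so no coverage minimum was applied and depth is unknown. Positions are printed as the files give them, and whether they count from 0 or from 1 was not settled.

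A value of exactly 1.0 (tolerance 1e-06) was replaced by 0.01 wherever the position's median was below 0.05. This touched 4075 window cells, 0 to 270 per library. Cells with more than 2 decimals are treated as filled in (0.613% in the window, 19.4% in the library L1_A7, median 0.0291%).

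The members, runs, lists and rules were chosen with earlier results of these data known. Regions named are the 3 longest runs, the 3 with largest and the 3 with smallest spread at a median of 0.2 to 0.8, the 3 highest unmethylated runs and each position with 3 levels. The runs at 1499305, 1149140 and 713846 were added after their values were seen. Library codes match no label, so libraries were left without a group. Correlations used 100000 permutations (NumPy 2.4.6, SciPy 1.17.1), tested on simulated data. No gene list was tested, since no annotation of the build was used here.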

Additional observations from a re-analysis of the deposited data

Results flagged for a closer look

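In 2 of 12 variable runs, 1 of the 6 repeat pairs stood far from the other 5 in the difference between captures, by a limit that chance passes in about 1 in 20 such sets. For the run at 1499305 the pair of number 7 had 0.404 in the first capture and 0.66 in the second, a difference of 0.256, and the other 5 pairs differed by -0.0344 to 0.0366. For the run at 1196826 it was again the pair of number 7, with 0.582 in the first capture and 0.495 in the second, a difference of -0.0873, and the other 5 had -0.0191 to 0.0182.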

How the results depend on the processing

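With boundaries of 0.2 and 0.7 the window was 59.2% unmethylated, 30.4% methylated and 10.4% between. In a window from 800000 to 2300000 the shares were 49.4%, 30.7% and 19.9%, and with the mean over libraries 18.2% lay between. The density-matched difference was -6.67 percentage points with neighbours counted within 250 bp and -1.12 without the pair of runs from 1499305 to 1500154. It was -5.08 with both changes. The alternatives without the pair were chosen after seeing the data, and no runs were left out of the rest. Runs of at least 5 positions numbered 183, of which 92 were unmethylated. The share of positions with an SD over 0.1 was 57.2% with the values as deposited (50.3% in the rest of the chromosome), since single values of 1.0 at unmethylated positions were then kept. It was 14.8% without the pair of runs, and 5.19% of positions had an SD over 0.15. The median r of repeat libraries was 0.9373 with the values as deposited and 0.8991 at means between 0.1 and 0.9. The r of window and rest means was 0.914 with the values as deposited and 0.528 over positions with levels of 0.2 to 0.8. No direction was reversed. The placing of promoters by CpG spacing was not run, since no promoter sequences were at hand. No paired analysis was possible because the groups of the labels could not be tied to libraries, and the repeat pairs rest on code numbers alone. Coverage was not analysed here, so how depth limits these values is unknown.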
